A study of Mus musculus with 12 samples.

Results

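The respiratory chain genes described here encode nuclear subunits of complexes I to V of the mitochondrial inner membrane. They were taken by gene symbol: every probe set annotated to exactly 1 gene whose symbol begins with Ndufa, Ndufb, Ndufc, Ndufs or Ndufv and a digit, is Sdha to Sdhd or Cyc1, or belongs to the Uqcr, Cox4 to Cox8 or Atp5 families. This gave 81 genes of the 22180 named on the array. They comprised 31 genes of complex I, 4 of complex II, 8 of complex III, 17 of complex IV, 17 of complex V, the pair Ndufa4 and Ndufa4l2, and 2 pseudogenes. Of these, 77 were bright enough to be tested, among 16667 genes tested in all. The 4 set aside were the pseudogenes Atp5c1-ps and Uqcrh-ps1 and the testis isoforms Cox7b2 (2.21 to 2.56 log2 units over the arrays) and Cox8c (2.63 to 3.07). Subunits encoded by mitochondrial DNA, and subunits such as Cox6c, Ndufb4 and Uqcr10 whose probe sets carry several symbols, are not analysed here.

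Mouse T cell RNA was measured on 12 Affymetrix whole-transcript arrays, 1 per sample. The groups were BALB/c iNKT17 cells (3 arrays), BALB/c ROR- cells (3), B6 iNKT17 cells (2), B6 gamma-delta 17 cells (2) and B6 ROR- cells (2). No treatment, age, sex, organ or genetic change is given for any group, and the sort that defined each population is not given in the sources used here. iNKT17 cells are invariant natural killer T cells of the interleukin 17 type, gamma-delta 17 cells are the corresponding gamma-delta T cells, and ROR- is the labels' name for the comparison population. Whether replicates are separate animals is not stated, so the p-values reflect the spread among these samples alone, and that spread may be technical. In bulk RNA, fewer cells of a type and less RNA per cell cannot be told apart.

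The respiratory chain passes electrons from NADH, through complex I, and from succinate, through complex II, to coenzyme Q, complex III, cytochrome c and complex IV, where oxygen is reduced. Complexes I, III and IV pump protons as they do so, and complex V, the ATP synthase, uses the resulting gradient. Several complex IV subunits exist as a widely expressed isoform and an isoform known from heart and skeletal muscle, and T cells are known to change their use of respiration with activation and memory formation.

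Marker genes were checked before the comparisons. The T cell receptor component Cd3e lay between 11.1 and 11.8 log2 units on every array. Il23r, the interleukin 23 receptor, lay between 9.53 and 10.3 on iNKT17 and gamma-delta 17 arrays and between 2.93 and 3.67 on ROR- arrays, except BALB/c ROR- replicate 2 at 7.003. On B6 gamma-delta 17 replicate 1 the neutrophil gene S100a8 read 9.30, against at most 2.44 on the other arrays, and Cd8a read 8.76, against at most 6.74. Cd8b1 (8.24), Dntt (5.52) and the macrophage gene Lyz2 (6.86) were also highest on that array, while Rag2 and Adgre1 were not. Cd8a read 6.74 and 6.73 on B6 iNKT17 arrays, against 4.59 and 4.93 on B6 ROR- arrays. Of 4 tested CD8 and immature thymocyte genes, 2 lay above 0 and 2 below in that comparison, and none passed. The part of this signal in the members' values was not tested. The mean of 15 tested cell cycle genes was lower on BALB/c than on B6 iNKT17 arrays, at 5.84 to 8.46 against 8.64 to 9.35. On ROR- arrays the strains overlapped, at 5.70 to 7.74 in BALB/c and 7.69 to 8.67 in B6. B6 gamma-delta 17 arrays stood at 8.58 to 8.66. None of the 15 genes passed in either strain comparison. Of 6 B cell genes, Cd79b, a B cell receptor component, was higher on iNKT17 (5.90 to 6.80) and gamma-delta 17 arrays (7.48 and 8.24) than on ROR- arrays (4.39 to 5.13), while Cd79a, Cd22 and Pax5 stayed between 3.29 and 4.58 on all arrays. Ighm read 7.52 to 8.35 on BALB/c and 7.77 and 8.13 on B6 iNKT17 arrays, against 8.97 to 9.25 on the other B6 arrays. Ms4a1 was too dim to test. Cd79b rose as the mean of both strains (1.76), and Ighm (-0.67) and Cd79a (-0.43) fell. All 3 also passed within B6 (1.68, -1.11 and -0.75), and Cd79b within BALB/c (1.85). Between BALB/c and B6 ROR- cells Ighm fell (-1.17), 1 of 5 tested genes, against 1.22% of all genes. The part of these genes in the members' values was not tested. Of the tested macrophage, erythroid, and epithelial and stromal genes, 0 passed in limma as the mean of both strains, with 2, 0 and 1 at an unadjusted p under 0.05.

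The gene whose level differed most by cell type, Cox7a1, and its widely expressed counterpart Cox7a2 are shown with their promoter windows, beside Cox6a1, a housekeeping complex IV subunit, and Ndufa4, the other gene past the threshold within BALB/c. Each window runs 5′ to 3′ from 250 bases before to 50 bases after the RefSeq start on GRCm38.p6. The windows are chr7:30183921-30184220 (plus strand) for Cox7a1, chr9:79759804-79760103 (minus) for Cox7a2, chr5:115348909-115349208 (minus) for Cox6a1 and chr6:11907401-11907700 (minus) for Ndufa4. Capitals mark matches, on either strand, to 6 motifs searched: NRF1 as GCGCA, any base and GCGC, ETS as CCGGAAG, the CCAAT box as CCAAT, ERR as AAGGTCA, YY1 as AAGATGG and a TATA box as TATAAA.
Cox7a1: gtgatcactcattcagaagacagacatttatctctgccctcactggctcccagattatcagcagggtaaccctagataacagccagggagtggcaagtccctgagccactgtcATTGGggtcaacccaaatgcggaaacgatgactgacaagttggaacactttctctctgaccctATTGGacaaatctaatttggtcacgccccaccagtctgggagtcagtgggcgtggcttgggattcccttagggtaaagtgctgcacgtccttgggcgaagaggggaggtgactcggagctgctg
Cox7a2: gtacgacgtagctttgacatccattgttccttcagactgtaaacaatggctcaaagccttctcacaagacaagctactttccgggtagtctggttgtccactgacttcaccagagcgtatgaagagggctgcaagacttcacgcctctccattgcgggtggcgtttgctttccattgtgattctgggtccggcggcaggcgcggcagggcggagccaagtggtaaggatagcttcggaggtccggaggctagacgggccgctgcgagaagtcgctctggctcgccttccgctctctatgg
Cox6a1: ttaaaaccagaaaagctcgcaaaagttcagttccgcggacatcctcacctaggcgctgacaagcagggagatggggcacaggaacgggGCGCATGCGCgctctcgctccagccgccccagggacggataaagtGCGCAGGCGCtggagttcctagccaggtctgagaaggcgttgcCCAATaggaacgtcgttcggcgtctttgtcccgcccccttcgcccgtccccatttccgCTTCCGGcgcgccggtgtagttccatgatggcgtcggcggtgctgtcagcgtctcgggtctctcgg
Ndufa4: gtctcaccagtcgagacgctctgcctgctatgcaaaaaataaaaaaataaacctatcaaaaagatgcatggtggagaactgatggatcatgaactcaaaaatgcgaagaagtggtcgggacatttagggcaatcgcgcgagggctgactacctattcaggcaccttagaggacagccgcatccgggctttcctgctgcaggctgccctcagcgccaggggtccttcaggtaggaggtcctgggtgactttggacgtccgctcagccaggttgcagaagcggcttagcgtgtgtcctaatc

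The Cox7a1 window held 2 CCAAT matches, 7 CpG dinucleotides and no match to the NRF1, ETS, ERR, YY1 or TATA letters. The Cox7a2 window held 20 CpG dinucleotides and none of the 6 motifs, and the Ndufa4 window held 14 and none. The Cox6a1 window held 32 CpG dinucleotides, 2 NRF1 matches, 1 ETS match and 1 CCAAT match. RefSeq windows were given for 64 of the 79 genes other than pseudogenes (69 windows), and their median CpG count was 19, against 7 over all 32851 windows. NRF1 letters occurred in 23.4% of the 64 genes and 5.19% of all 27025 genes with a window. ETS letters occurred in 26.6% of the 64 and 9.93% of all, YY1 letters in 15.6% and 7.28%, ERR letters in 9.38% and 5.38%, CCAAT in 40.6% and 41.1%, and TATAAA in 12.5% and 15.7%. A match is a description of the letters only.

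The first question was how iNKT17 cells differ from ROR- cells of the same strain. Cox7a1, the heart and muscle isoform of complex IV subunit 7a, was the member with the largest difference and was higher in iNKT17 cells of both strains. Ndufa4, a complex IV subunit first assigned to complex I, Ndufa1, a small membrane-arm subunit of complex I, and Uqcrb, a complex III subunit near the coenzyme Q site, rose by smaller amounts. As the mean of both strains, 4 of 77 members rose and 0 fell (limma, Benjamini-Hochberg adjusted p under 0.05 over all genes), a share of 5.19%, against 12.3% of all genes tested, 6.49% higher and 5.81% lower. The share of members that passed therefore lay below that of all genes. The members' median log2 difference was 0.11, against -0.00 over all genes. Of the members' estimates, 65 of 77 lay above 0, against 8195 of 16667 over all genes. The estimates share arrays, so such counts are a description and not a test. In the same comparison all 15 tested cell cycle genes lay above 0 with a median of 0.68, none past the threshold and 0 at an unadjusted p under 0.05, and their part in the members' values was not tested. The count of members that rose was 6 without BALB/c ROR- replicate 1, where Cox5a and Ndufa11 were added. It was lower than 4 without B6 iNKT17 replicate 2 or B6 ROR- replicate 1, where 1 array stands for the group. The share of all genes that passed in these fits is not given here.

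Cox7a1 read 5.44, 6.94 and 5.79 on BALB/c iNKT17 arrays, against 5.15, 4.20 and 4.75 on BALB/c ROR- arrays. In B6 it read 6.88 and 7.09 on iNKT17 arrays, against 4.71 and 4.82 on ROR- arrays. Every iNKT17 array lay above every ROR- array, but the lowest BALB/c iNKT17 array and the highest BALB/c ROR- array were close. As group means the levels were 6.06 ± 0.79 in BALB/c iNKT17 and 4.70 ± 0.48 in BALB/c ROR- cells (SD, n = 3), and 6.98 ± 0.15 in B6 iNKT17 and 4.76 ± 0.07 in B6 ROR- cells (n = 2). The log2 difference was 1.79 ± 0.27 (SE; limma adjusted p = 0.000716), a 3.45-fold higher level, with a 95% interval from 1.21 to 2.37. This call held whichever array was left out, with log2 differences between 1.57 and 1.94.

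Within strains the Cox7a1 difference was 1.36 ± 0.34 in BALB/c (limma adjusted p = 0.0311) and 2.22 ± 0.41 in B6 (adjusted p = 0.00662). Without BALB/c iNKT17 replicate 2, the brightest array of its group, the BALB/c value was 0.91 (adjusted p = 0.0603), and it was 1.11 (adjusted p = 0.113) without BALB/c ROR- replicate 2. The BALB/c call also ended without iNKT17 replicate 3 (1.49, adjusted p = 0.0570) or ROR- replicate 3 (1.38, adjusted p = 0.0839), and with only the compared groups in the fit (adjusted p = 0.0967) or a replicate block (adjusted p = 0.0561). The B6 call ended when B6 iNKT17 replicate 2 was left out (2.11, adjusted p = 0.0611), or B6 ROR- replicate 1 (2.17, adjusted p = 0.0613), where 1 array stands for the group. BALB/c iNKT17 replicate 2 was also the array of its group with the highest cell cycle mean, 8.46 against 5.84 and 6.64, and the part of this in the Cox7a1 level was not tested. In B6 the cell cycle means were 8.64 and 9.35 on iNKT17 arrays, against 7.69 and 8.67 on ROR- arrays. Their part in the B6 difference of Cox7a1 was not tested either. A list of 7 muscle and fat genes had array means between 3.34 and 3.62 on all 12 arrays. None of its 4 tested genes passed in either strain or as their mean, where 0 had an unadjusted p under 0.05, and Myh1, Adipoq and Fabp4 were too dim to test.

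**Figure D1:**
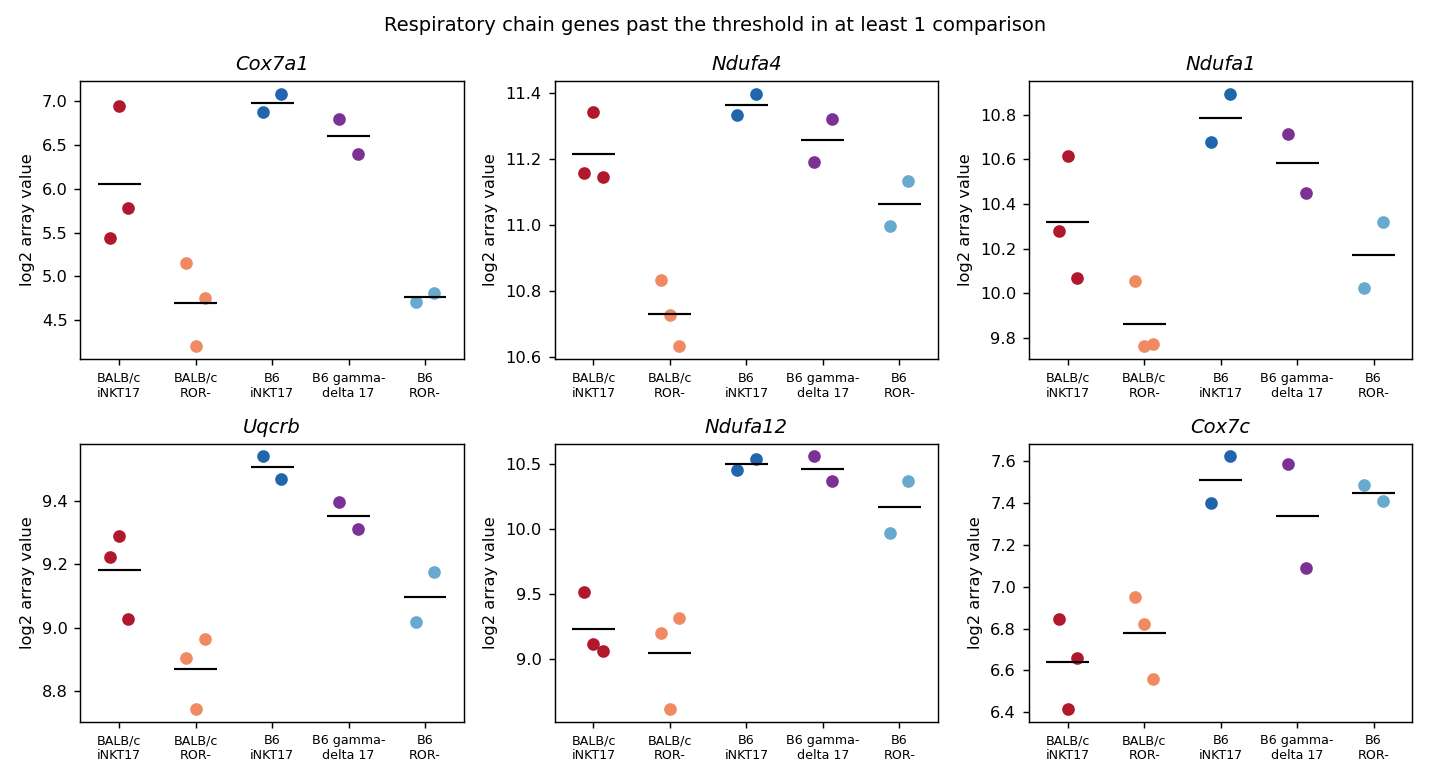
Log2 array values (vertical axes, each panel on its own range) of the 6 respiratory chain genes past the threshold in at least 1 comparison, by group along the horizontal axis; points are arrays and bars are group means. Cox7a1 is higher on iNKT17 and gamma-delta 17 arrays than on ROR- arrays, while Ndufa12 and Cox7c are lower on BALB/c arrays than on B6 arrays.

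Isoform partners of complex IV did not follow Cox7a1 past the threshold. Cox7a2, the widely expressed subunit 7a isoform, read 10.52, 10.77 and 10.52 on BALB/c iNKT17 arrays, against 10.71, 10.38 and 9.99 on BALB/c ROR- arrays. In B6 it read 10.73 and 10.94 on iNKT17 arrays, against 10.53 and 10.76 on ROR- arrays. The groups overlapped in both strains, and the difference was 0.22 ± 0.13 (adjusted p = 0.369, interval -0.07 to 0.51). Cox6a2, the muscle isoform of subunit 6a, lay between 4.89 and 5.49 on all arrays and its difference was -0.08 ± 0.13 (adjusted p = 0.802). Cox6a1, the widely expressed subunit 6a isoform, had a difference of 0.23 ± 0.08 (adjusted p = 0.115). Cox4i2, the isoform of subunit 4 known from lung, differed by 0.08 ± 0.12 and the widely expressed Cox4i1 by 0.04 ± 0.09, with intervals from -0.18 to 0.33 and from -0.16 to 0.24. Cox8b, the muscle isoform of subunit 8, lay between 3.22 and 3.66, near the level of 3.45 below which probe sets count as dim.

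**Figure D2:**
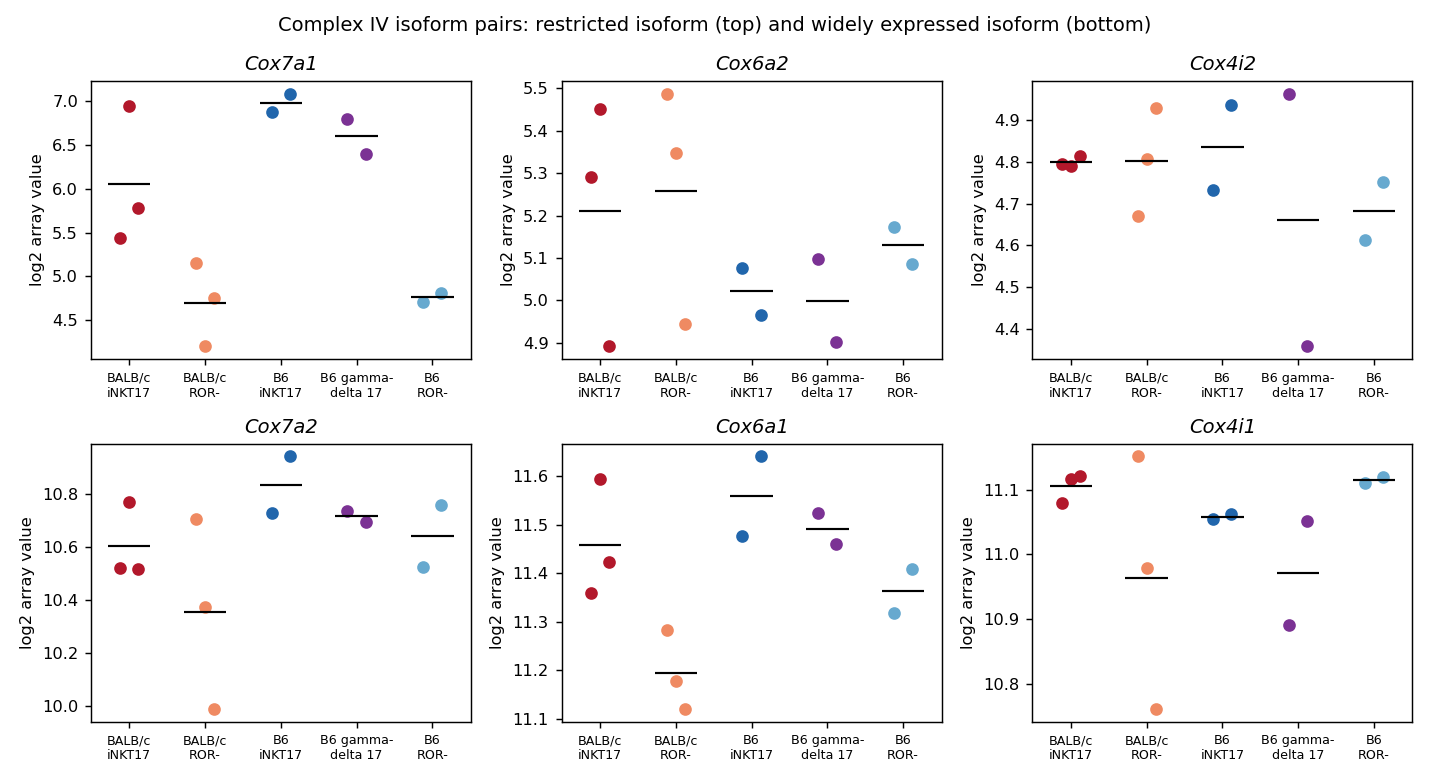
Log2 array values (vertical axes, each panel on its own range) of 3 complex IV isoform pairs by group, with the tissue-restricted isoform above and the widely expressed one below; points are arrays and bars are group means. Cox7a1 ranges from 4.20 to 7.09 over the arrays, Cox6a2 from 4.89 to 5.49 and Cox7a2 from 9.99 to 10.94.

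Ndufa4 read 11.16, 11.34 and 11.14 on BALB/c iNKT17 arrays, against 10.83, 10.73 and 10.63 on BALB/c ROR- arrays. In B6 it read 11.33 and 11.40 on iNKT17 arrays, against 10.996 and 11.13 on ROR- arrays. The lowest iNKT17 array of either strain lay just above the highest ROR- array. Its difference was 0.39 ± 0.09 averaged over the strains (limma adjusted p = 0.0100) and 0.48 ± 0.11 in BALB/c (adjusted p = 0.0185), while in B6 it was 0.30 ± 0.13 and did not pass (adjusted p = 0.295). Without B6 ROR- replicate 1 the mean over strains was 0.36 (adjusted p = 0.0579). The BALB/c call ended without BALB/c iNKT17 replicate 2 (0.42, adjusted p = 0.0808), ROR- replicate 2 (0.48, adjusted p = 0.0514) or ROR- replicate 3 (0.43, adjusted p = 0.0575), and with only the compared groups in the fit (adjusted p = 0.0623). Its paralogue Ndufa4l2, known to be induced by hypoxia in other cells, lay between 3.23 and 3.88, near the dim level, and its difference was -0.08 ± 0.11.

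Ndufa1 read 10.28, 10.62 and 10.07 on BALB/c iNKT17 arrays, against 10.06, 9.76 and 9.77 on BALB/c ROR- arrays. In B6 it read 10.68 and 10.90 on iNKT17 arrays, against 10.02 and 10.32 on ROR- arrays. The groups did not overlap within either strain, though BALB/c iNKT17 replicate 3 lay only just above BALB/c ROR- replicate 1. Its difference of 0.54 ± 0.13 passed as the mean of both strains (limma adjusted p = 0.0165) but in neither strain alone, at 0.46 in BALB/c and 0.61 in B6 (adjusted p = 0.139 and 0.115). The call ended without B6 iNKT17 replicate 2 (0.48, adjusted p = 0.0804) or B6 ROR- replicate 1 (0.46, adjusted p = 0.0914).

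Uqcrb read 9.22, 9.29 and 9.03 on BALB/c iNKT17 arrays, against 8.90, 8.74 and 8.96 on BALB/c ROR- arrays. In B6 it read 9.54 and 9.47 on iNKT17 arrays, against 9.02 and 9.18 on ROR- arrays. Within each strain the iNKT17 arrays lay above the ROR- arrays. The difference was 0.36 ± 0.09 as the mean of both strains (limma adjusted p = 0.0203), and 0.31 in BALB/c and 0.41 in B6 did not pass alone. It lost its call without B6 iNKT17 replicate 1 or 2 or B6 ROR- replicate 1, where the adjusted p reached 0.103, and after quantile normalization, at 0.31 (adjusted p = 0.0550).

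By complex, the share of genes with estimates above 0 was similar while the sizes were small. In complex I, 27 of 31 genes lay above 0 with a median of 0.16, and Ndufa1 alone passed. Ndufa11 and Ndufc1, further membrane-arm subunits, had 0.39 and 0.31 (adjusted p = 0.0665 and 0.0632). Ndufs1 and Ndufv1, of the arm that oxidises NADH, had 0.16 and 0.14. In complex II, none of the 4 succinate dehydrogenase subunits passed, and Sdha, the flavoprotein that binds succinate, had 0.04 ± 0.08. In complex III, 7 of 8 genes lay above 0, with Cyc1, the cytochrome c1 subunit, at 0.27 ± 0.13 (adjusted p = 0.249) and the core subunit Uqcrc1 at 0.15. In complex IV, 13 of 15 tested genes lay above 0 with a median of 0.09, and Cox5a, a widely expressed subunit, had 0.27 ± 0.09 (adjusted p = 0.0674). In complex V, 14 of 17 genes lay above 0 with a median of 0.10 and none passed. Atp5a1 and Atp5b, subunits of its catalytic head, had 0.02 and 0.12, and the membrane ring subunit Atp5g2 had the lowest value of all members, -0.09. Next lowest were Ndufa4l2 and Cox6a2 (both -0.08), Atp5h, a stalk subunit of the ATP synthase, and Ndufv3, an accessory subunit of complex I (both -0.07).

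None of the following subunits passed. The complex III subunits Uqcrfs1, the Rieske iron-sulphur protein, and Uqcrc2, a core protein, had -0.06 and 0.02. In complex IV, Cox8a and Cox7a2l, a factor of supercomplex assembly, had 0.03 and 0.02, Cox7b had 0.09, and Cox6b1 and Cox5b had 0.21 and 0.22. Ndufb8, a complex I subunit often used as a marker of the assembled complex, had 0.26, and the ring subunits Atp5g1 and Atp5g3 had 0.04 and 0.11.

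**Figure D3:**
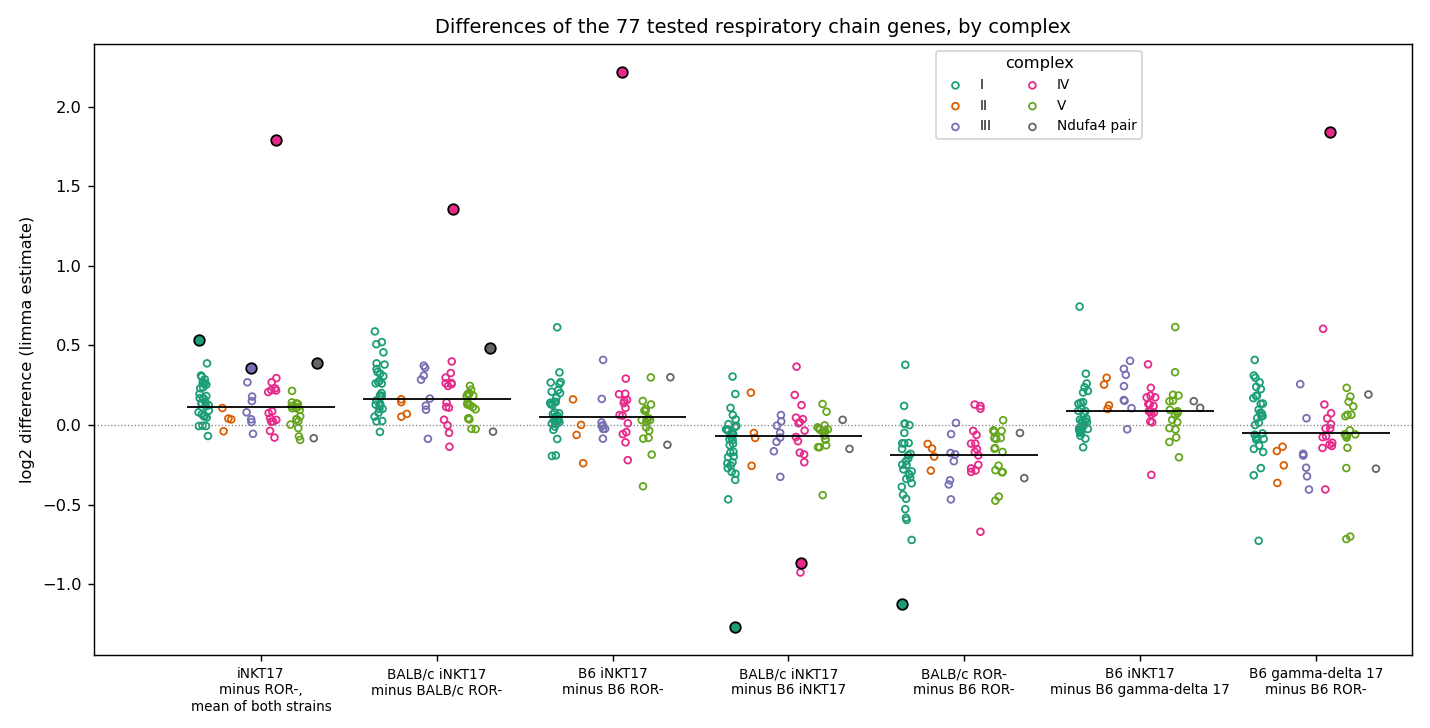
Log2 differences (vertical axis, limma estimates) of the 77 tested genes in 7 comparisons along the horizontal axis, coloured by complex; filled points passed the threshold and the bars are medians over the 77. The medians are 0.11, 0.17 and 0.05 in the comparisons of iNKT17 with ROR- cells and -0.07 and -0.19 in the comparisons of BALB/c with B6.

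Strain by strain, more members lay above 0 in BALB/c than in B6, but the interaction test called no member. In BALB/c, 2 of 77 members rose and 0 fell (Cox7a1 and Ndufa4), against 6.97% of all genes, 4.06% higher and 2.91% lower. The members' median was 0.17, against 0.00 over all genes, and 69 of 77 lay above 0, against 8475 of 16667 over all genes. In B6, 1 of 77 rose and 0 fell (Cox7a1), against 5.99% of all genes, 2.83% higher and 3.16% lower. The B6 median was 0.05, against -0.01 over all genes, and 54 of 77 lay above 0, against 8163 of 16667. Estimates lay above 0 in both strains for 50 of 77 members (64.9%), against 33.5% of all genes, and below 0 in both for 4. In limma's test of the difference between the strains' differences, 0 members passed, against 0.084% of all genes (0.06% higher and 0.024% lower), and 0 members had an unadjusted p under 0.05. Apart from Cox7a1, the interaction estimates ran from -0.20 for Cox7c to 0.58 for Atp5g2. The interaction estimate of Cox7a1 was -0.86 ± 0.53 with a 95% interval from -2.02 to 0.30.

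After Cox7a1, the largest BALB/c estimates were those of Ndufb11 (0.59), Ndufa9 (0.52) and Ndufa11 (0.51), none of which passed. Ndufb11, a membrane-arm subunit of complex I encoded on the X chromosome, read 7.74, 7.36 and 7.73 on BALB/c iNKT17 arrays, against 7.44, 7.52 and 6.10 on BALB/c ROR- arrays. The groups overlapped and replicate 3 stood far below the other ROR- arrays. Ndufa9, at the junction of the arms of complex I, likewise read 7.73 on BALB/c ROR- replicate 3, against 8.89 and 8.40 on the other arrays of that group. Cox5a had 0.40 ± 0.11 in BALB/c and lay just outside the threshold (adjusted p = 0.0501), and its B6 value was 0.14. The lowest BALB/c estimates were those of Cox7c (-0.14) and Uqcrfs1 (-0.09), and the lowest B6 estimates those of Atp5g2 (-0.38), Sdhd (-0.24) and Cox7a2l (-0.22). Without BALB/c ROR- replicate 1, 6 members passed in BALB/c, the added ones being Cox5a, Cox5b, Ndufa11 and Ndufa9. Without BALB/c iNKT17 replicate 2, ROR- replicate 2 or ROR- replicate 3, 0 passed. The share of all genes that passed in these reduced fits is not given here, so the changes in count cannot be set against it.

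**Figure D4:**
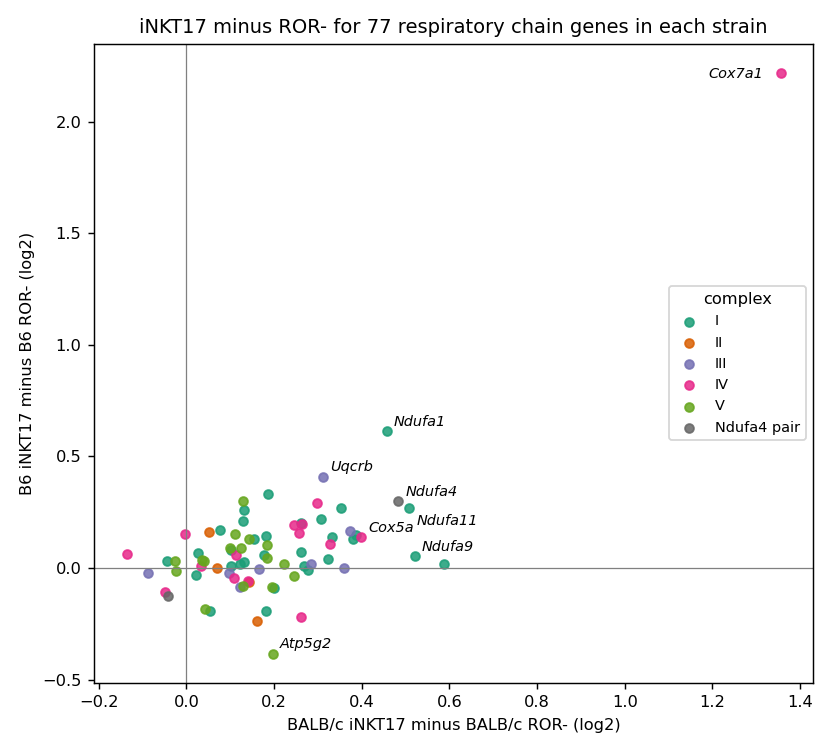
Log2 difference between iNKT17 and ROR- cells in BALB/c (horizontal axis) and in B6 (vertical axis) for the 77 tested genes, coloured by complex. Cox7a1 lies apart at 1.36 and 2.22, and 50 of 77 genes lie above 0 on both axes.

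Genes that assemble or regulate the chain were counted from lists, beside the 12.3% of all genes that passed as the mean of both strains. A list of 14 complex I genes held assembly factors and Ndufab1, a subunit that the symbol rule does not take. Of these, 1 rose and 0 fell (7.14%): Ndufaf2, a chaperone of complex I, at 0.53 ± 0.16 (limma adjusted p = 0.0491). Of 29 tested assembly factors of complexes II to IV, 1 rose and 1 fell (6.9%). Cmc2, a small mitochondrial protein linked to complex IV biogenesis, rose by 0.83 ± 0.11 and passed in BALB/c (0.87) and B6 (0.78) alone. Uqcc3, an assembly factor of complex III, fell by 0.45 on the log2 scale (adjusted p = 0.00434) and passed in B6 alone. Of 4 tested genes for complex V assembly and inhibition, 1 rose (25%): Atpif1, the inhibitor of ATP synthase hydrolysis, at 0.54 ± 0.12 (adjusted p = 0.0113).

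In the same comparison 12.3% of all genes passed. A list of tricarboxylic acid cycle genes also held pyruvate dehydrogenase and its kinases, and 3 of its 19 tested genes passed (15.8%). The genes that rose were the succinyl-CoA ligase subunits Suclg1 (0.65) and Sucla2 (0.44), and the gene that fell was the NADP-dependent isocitrate dehydrogenase Idh2 (-0.56). Of 71 mitochondrial ribosomal proteins, 2 rose (Mrpl47 and Mrpl58) and 0 fell (2.82%), with a median of 0.07. Of 20 import and inner membrane genes, 1 rose (Tomm7, 0.32; 5% of the list), and of 12 carrier and coenzyme Q genes none passed, with 3 at an unadjusted p under 0.05. Of 15 tested regulators of mitochondrial biogenesis, 0 rose and 1 fell (6.67%): Myc, a transcription factor that also drives many other genes, at -1.83 ± 0.16 (limma adjusted p = 1.08e-05). Ppargc1a, a coactivator known for driving respiratory chain genes in muscle and brown fat, was too dim to test.

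The next question was how the strains differ within a cell type. Among iNKT17 cells, Ndufa12, an accessory subunit of complex I, and Cox7c, a small subunit of complex IV, were lower in BALB/c than in B6. Ndufa12 was also lower in BALB/c among ROR- cells. Values in the strain comparisons are probe-set signals, and whether the probes read both strains alike was not tested. In iNKT17 cells, 0 of 77 members rose and 2 fell, against 1.48% of all genes, 0.672% higher and 0.81% lower, with a member median of -0.07, against 0.03. In ROR- cells, 0 rose and 1 fell, against 1.22% of all genes, 0.378% higher and 0.84% lower. There the member median was -0.19, against 0.01, and 68 of 77 estimates lay below 0, against 8042 of 16667 over all genes.

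Ndufa12 read 9.52, 9.12 and 9.07 on BALB/c iNKT17 arrays, against 10.46 and 10.54 on B6 iNKT17 arrays. It read 9.20, 8.62 and 9.32 on BALB/c ROR- arrays, against 9.97 and 10.37 on B6 ROR- arrays. Every BALB/c array lay below every B6 array, gamma-delta 17 arrays (10.56 and 10.37) included. The difference was -1.27 ± 0.22 in iNKT17 cells (limma adjusted p = 0.0130), a 2.41-fold lower signal, and -1.12 ± 0.22 in ROR- cells (adjusted p = 0.0302). A dimmer probe set of the gene gave -0.65 in iNKT17 cells (adjusted p = 0.321) and -1.11 in ROR- cells (adjusted p = 0.0812), neither past the threshold. That probe set read 7.21, 7.32 and 7.14 on BALB/c iNKT17 arrays, against 7.81 and 7.95 on B6 iNKT17 arrays. The iNKT17 call of the brighter probe set ended without BALB/c iNKT17 replicate 3 or either B6 iNKT17 array, where the adjusted p reached 0.162. The ROR- call ended without BALB/c ROR- replicate 2 (-0.91, adjusted p = 0.0582), B6 iNKT17 replicate 2 (-1.12, with an adjusted p just over the threshold) or either B6 ROR- array, where it reached 0.367. It also ended with only the compared groups in the fit (adjusted p = 0.135) or a replicate block (-1.15, adjusted p = 0.0740).

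Cox7c read 6.85, 6.42 and 6.66 on BALB/c iNKT17 arrays, against 7.40 and 7.62 on B6 iNKT17 arrays. It read 6.95, 6.82 and 6.56 on BALB/c ROR- arrays, against 7.49 and 7.41 on B6 ROR- arrays. No BALB/c array overlapped the B6 arrays of its cell type. The difference was -0.87 ± 0.18 in iNKT17 cells (limma adjusted p = 0.0414) and -0.67 ± 0.18 in ROR- cells (adjusted p = 0.133). The call in iNKT17 cells was lost in 8 of 12 fits that each left out 1 array, with an adjusted p up to 0.443, and with only the compared groups in the fit (adjusted p = 0.0747) or a replicate block (-0.82, adjusted p = 0.0864).

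Cox7a1 had an estimate of -0.93 ± 0.37 between BALB/c and B6 iNKT17 cells and did not pass (adjusted p = 0.318), and BALB/c iNKT17 replicate 2 at 6.94 lay within the range of the B6 arrays. Without that array it passed at -1.37 (adjusted p = 0.0238). In ROR- cells the estimate was -0.06 ± 0.37. Further estimates in ROR- cells, none past the threshold, were -0.72 for Ndufa9, -0.60 for Ndufs8, an iron-sulphur subunit of complex I, and -0.58 for Ndufb10 (adjusted p = 0.303, 0.220 and 0.0698). Ndufa6, an accessory subunit of complex I, had the highest estimates in ROR- cells, 0.38, and 0.30 in iNKT17 cells, where Cox7a2l had 0.37 (adjusted p = 0.619). Sdhd and Ndufs5 had 0.20 in iNKT17 cells, and Ndufs3 had 0.12 in ROR- cells. Ndufa1 had -0.47 in iNKT17 cells (adjusted p = 0.292). Atp5md, a small subunit of the ATP synthase also known as DAPIT, had -0.44 in iNKT17 and -0.47 in ROR- cells, with no overlap between the strains' arrays and adjusted p = 0.145 and 0.126.

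Averaged over the 77 genes as deviations from each gene's mean over 12 arrays, BALB/c ROR- arrays stood at -0.05, -0.20 and -0.26, against -0.02 and 0.11 on B6 ROR- arrays. BALB/c iNKT17 arrays stood at 0.02, 0.07 and -0.00, against 0.09 and 0.18 on B6 iNKT17 arrays. The pair of lowest arrays, BALB/c ROR- replicates 2 and 3, are those with the lowest cell cycle means of their group, 5.70 and 5.98, against 7.74 on replicate 1. The 15 cell cycle genes all lay below 0 in both strain comparisons, with medians of -2.05 in iNKT17 and -2.01 in ROR- cells, and while none passed the threshold, 15 and 10 of them had an unadjusted p under 0.05. BALB/c iNKT17 replicate 1, with a cell cycle mean of 5.84, had a member mean of 0.02. BALB/c ROR- replicate 3 also had the lowest mean deviation over all tested genes, -0.03, and the highest array median, 4.30. B6 iNKT17 replicate 2 and B6 ROR- replicate 2, the arrays with the highest member means, had the lowest array medians, 4.10 and 4.11. With every array centred on its median, the members' median between BALB/c and B6 ROR- cells was -0.27, against -0.07 over all genes. The part of cell cycle genes and of these array-wide differences in the members' shift was not tested otherwise.

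**Figure D5:**
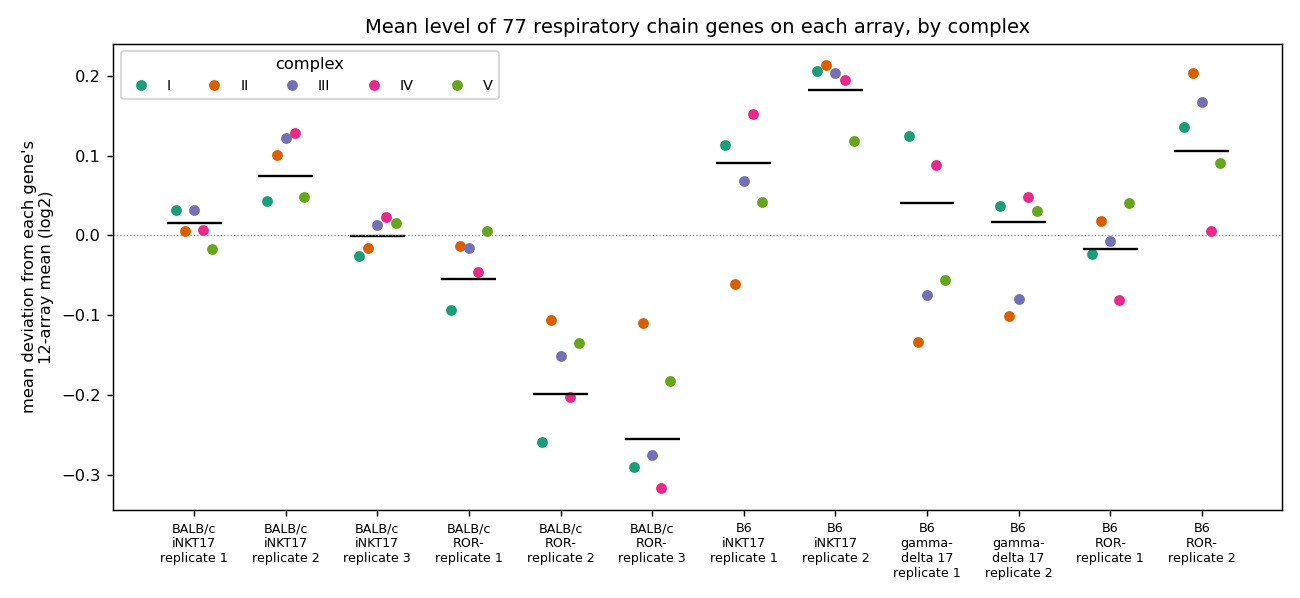
Mean deviation (vertical axis, log2) of the 77 tested genes and of each complex from the gene's own mean over 12 arrays, for each array along the horizontal axis; bars are the mean over all 77 and points are complexes. BALB/c ROR- replicates 2 and 3 lie lowest at -0.20 and -0.26, and B6 iNKT17 replicate 2 highest at 0.18.

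Mitochondrial lists were counted between strains too. Of 71 mitochondrial ribosomal proteins, 0 rose and 2 fell in BALB/c against B6 ROR- cells, Mrps5 (-1.12) and Mrps12 (-0.81). That is 2.82% of the list, against 1.22% of all genes. Of the 71, 69 lay below 0 with a median of -0.28, against 8042 of 16667 over all genes. Mrps12 also fell in iNKT17 cells (-0.74), the single call there, 1.41% of the list against 1.48% of all genes. Pdk1, the kinase that restrains pyruvate dehydrogenase, fell in BALB/c against B6 iNKT17 cells, at -1.40 ± 0.27 (limma adjusted p = 0.0260), and in ROR- cells, at -1.45 ± 0.27 (adjusted p = 0.0252). It was the single call in each among the 19 tested genes of the tricarboxylic acid cycle and pyruvate dehydrogenase list (5.26%). Cmc2 fell in ROR- cells (-0.74).

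The last question was how B6 gamma-delta 17 cells compare with iNKT17 and ROR- cells. Between iNKT17 and gamma-delta 17 cells, 0 of 77 members passed in limma, against 0.168% of all genes (0.06% higher and 0.108% lower), and 1 had an unadjusted p under 0.05. Between gamma-delta 17 and ROR- cells, 1 member rose and 0 fell, against 6.02% of all genes (2.61% higher and 3.41% lower). Both comparisons and the B6 comparison of iNKT17 with ROR- cells share arrays. The gene that rose was Cox7a1, at 6.80 and 6.401 on gamma-delta 17 arrays, against 4.71 and 4.82 on ROR- arrays. The arrays did not overlap and the difference was 1.84 ± 0.41 (adjusted p = 0.0206). Between iNKT17 and gamma-delta 17 cells Cox7a1 differed by 0.38 ± 0.41, with an interval from -0.52 to 1.28.

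B6 gamma-delta 17 replicate 1, the array with neutrophil and Cd8a signal, bears on these values. Its mean over 6 neutrophil genes was 6.28, against at most 3.53 on every other array. S100a8, S100a9, Camp, Elane and Mpo were highest on that array, and Ly6g was not, at 3.92 against up to 4.13 elsewhere. Without it, Cox7a1 stood at 1.64 above ROR- cells and did not pass (adjusted p = 0.134). Without replicate 2 the call was lost as well, and so it was without either B6 ROR- array. The single unadjusted difference from iNKT17 cells was Atp5d, the delta subunit of the ATP synthase, which read 11.16 and 11.41 on iNKT17 arrays, against 10.16 and 11.18 on gamma-delta 17 arrays. Only gamma-delta 17 replicate 1 was low, and the difference was 0.62 ± 0.26 (adjusted p = 0.565). Ndufb11 had the largest estimate, 0.74 ± 0.40, with 7.29 and 7.72 on iNKT17 arrays, against 6.51 and 7.001 on gamma-delta 17 arrays. The part of the other cell types' RNA in these values was not tested.

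No other member passed between gamma-delta 17 and ROR- cells. The median was -0.05, against 0.01 over all genes, and 42 of 77 lay below 0, against 8086 of 16667 over all genes. Cox6b2, the testis isoform of subunit 6b, had 0.60 ± 0.19 (adjusted p = 0.0900), with 4.81 and 4.99 on gamma-delta 17 arrays, against 4.24 and 4.35 on ROR- arrays. Atp5g2 had -0.72 ± 0.25 (adjusted p = 0.142), with 9.83 and 10.18 on gamma-delta 17 arrays, against 10.66 and 10.78 on ROR- arrays. A further Atp5g2 probe set gave -1.07. The first one passed without BALB/c ROR- replicate 3, at -0.72 (limma adjusted p = 0.0241). Atp5d had -0.70 (limma adjusted p = 0.176), and -1.21 without gamma-delta 17 replicate 2. That second fit rests on gamma-delta 17 replicate 1 alone, the array with neutrophil and Cd8a signal. All 4 complex II genes lay below 0, from -0.36 for Sdhd, a membrane anchor, to -0.14 for Sdhb, an iron-sulphur subunit, and all 4 lay above 0 between iNKT17 and gamma-delta 17 cells, from 0.10 to 0.30, with none past the threshold. Between iNKT17 and gamma-delta 17 cells the member median was 0.09, against 0.01 over all genes. The complex III subunit Uqcrq had 0.40 between iNKT17 and gamma-delta 17 cells and -0.41 between gamma-delta 17 and ROR- cells, and neither passed. Lowest between iNKT17 and gamma-delta 17 cells were Cox6b2 (-0.31), Atp5g1 (-0.20) and Ndufa5 (-0.14).

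Spread between replicates differed between groups. The median SD of a member was 0.164 among BALB/c ROR- arrays, the highest of the groups, against 0.0873 to 0.100 in the other 4. Over all genes tested the median SD was 0.183 in BALB/c ROR-, against 0.120 to 0.139 in the other 4. In every group the members' median lay below that of all genes. The largest SDs were those of Ndufb11 (0.795) in BALB/c ROR-, Cox7a1 (0.788) in BALB/c iNKT17 and Atp5d (0.720) in B6 gamma-delta 17 cells. For the 9 members with a further probe set, the estimates of the further and the brightest probe set had the same sign for Ndufa11 (0.45 and 0.39), Ndufa8 (0.26 and 0.12), Cox5b (0.13 and 0.22), Cox7b (0.16 and 0.09), Atp5d (0.08 and 0.06), Ndufa12 (0.30 and 0.26), Atp5h (-0.15 and -0.07), Atp5g2 (-0.18 and -0.09) and Atp5e (-0.00 and -0.02) in iNKT17 against ROR- cells, averaged over the strains. In BALB/c alone the further and the brightest probe set differed in sign for Atp5h (-0.25 and 0.04) and Atp5e (0.02 and -0.02). Signs also differed in other comparisons. Examples between BALB/c and B6 iNKT17 cells were Cox7b (-0.45 and 0.02) and Atp5h (-0.48 and 0.08). In gamma-delta 17 against ROR- cells they were Ndufa12 (-0.16 and 0.30), Cox5b (0.20 and -0.02) and Atp5h (0.12 and -0.08).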

How the data were processed

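RNA of 12 samples in 5 groups was measured on Affymetrix whole-transcript arrays. The authors deposited normalized log2 values for 41345 probe sets per array, made with oligo per the submitters' processing notes, and their summarisation and normalization steps are not stated in the sources used here. The base of the log was inferred from the range of the deposited values, whose array medians lay between 4.10 and 4.30. The labels' extraction protocol names frozen tissue, while the sample labels name cells.

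Probe sets were named by the platform annotation: 23521 had 1 symbol, 1814 several and 16010 none, and the brightest single-symbol probe set stood for its gene. Genes with at least 2 arrays above the 30th percentile (3.45) were tested, leaving 16667 of 22180. limma 3.58.1 in R 4.3.3 fitted the 5 group means to all 12 arrays with eBayes, and Benjamini-Hochberg adjustment ran over all genes tested, at a threshold of 0.05. Errors of differences are standard errors and intervals are 95% intervals. The fit was tested on simulated data, and the number of arrays limits the precision.

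Members and lists were chosen with earlier results of these data known. Named members were those past the threshold in any comparison, the 5 highest and lowest in each and a set of anchor subunits, and other genes were named from the lists where they passed or served as markers. Cell cycle, cell type marker and mitochondrial lists were summarised by counts and array means. Promoter windows are RefSeq's, on GRCm38.p6. Correlations of the deviations of same-numbered replicates were above 0 in some pairs of groups (0.47 for B6 iNKT17 with B6 ROR-) and below 0 in others (down to -0.46 for BALB/c iNKT17 with BALB/c ROR-), and the labels name no shared source, so the numbers were not taken as pairs. Alternatives covered scaling, the dim filter, the probe set used, array weights, eBayes settings, the groups fitted, a replicate block and each array left out.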

Additional observations from a re-analysis of the deposited data

How the results depend on the processing

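No result changed direction past its threshold under any alternative run. With only the groups compared in the fit, the count of members past the threshold was 0 in BALB/c iNKT17 against ROR-, 1 in BALB/c against B6 iNKT17 and 0 in BALB/c against B6 ROR- cells, where fewer arrays estimate the spread. With the replicate block those counts were 1, 1 and 0, and it changed no other count by over 1.5 times. Crossing the pairing of the gamma-delta 17 numbers, an alternative chosen after seeing the data, gave 1 and 0 in the strain comparisons of iNKT17 and ROR- cells. Without BALB/c ROR- replicate 2 and B6 ROR- replicate 1, also chosen after seeing the data, the counts were 2 for both strains averaged, 0 in BALB/c, 0 in B6, 1 and 0 in those strain comparisons and 0 in gamma-delta 17 against ROR- cells. Centring each array on its median moved the member median to -0.27 in BALB/c against B6 ROR-, to 0.20 in iNKT17 against gamma-delta 17 and to -0.14 in gamma-delta 17 against ROR- cells, while the median of all genes became -0.07, 0.12 and -0.08. The cause of the other changes was not tested.

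Leaving out each array in turn gave counts from 1 to 6 for both strains averaged, 0 to 6 in BALB/c, 0 to 1 in B6, 0 to 2 and 0 to 1 in the strain comparisons of iNKT17 and ROR- cells, and 0 to 2 in gamma-delta 17 against ROR- cells. The interaction and iNKT17 against gamma-delta 17 kept 0. The medians ran from 0.07 to 0.15, 0.14 to 0.22, 0.00 to 0.12, -0.13 to -0.03, -0.27 to -0.14 and -0.072 to 0.039 in the same order, from 0.059 to 0.18 for the interaction and from 0.06 to 0.13 for iNKT17 against gamma-delta 17. Where a group was left with 1 array, that array was assumed to vary like the other groups. For these fits and the alternatives above, the share of all genes past the threshold is not given here. Whether a change in count was particular to the members was not tested.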
